A study of Mus musculus with 22 samples.

Results

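The 10 genes described here encode chaperones and other components of the endoplasmic reticulum stress response: Hspa5, Hsp90b1, Pdia4, Calr, Sdf2l1, Creld2, Dnajb9, Herpud1, Edem1 and Xbp1. They are a list of symbols, chosen with earlier results of these data known, out of 18193 genes that the arrays name. Each gene is represented by its brightest probe set on average, among those annotated to that symbol alone. All 10 were found, on 21 probe sets, and all 10 passed the filter on dim genes in the cells. RNA was measured on 22 Affymetrix mouse genome arrays of male C57BL/6 mice. In the cultured cells, 14 arrays hold aortic smooth muscle cells dispersed from the suprarenal aorta of tenascin C knockout (TNC-KO) mice, so every culture, the untreated ones included, lacks its own tenascin C (TNC). Cultures received exogenous TNC (10 µg/mL) together with TNF-alpha (TNF, 10 ng/mL; 4 arrays), TNC alone (4 arrays), TNF alone (3 arrays) or neither (none; 3 arrays), and the design text describes them as independent cultures with 24 h of TNF. In the aorta, 8 arrays hold pooled RNA, 1 array for each combination of genotype (TNC-KO or wild type, WT), treatment and segment. Treated mice had CaCl2 (0.5 M) laid around the infrarenal aorta and angiotensin II (1 µg/min/kg) infused for 1 week (CaAngII, 8 mice a pool), and untreated mice had neither (5 mice a pool). The suprarenal and infrarenal segments were 10 mm long, so the suprarenal aorta of treated mice received angiotensin II but no CaCl2 on its own wall.

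Secreted and membrane proteins fold in the lumen of the endoplasmic reticulum. When unfolded protein builds up there, the membrane sensors IRE1, ATF6 and PERK start the unfolded protein response: IRE1 splices Xbp1 RNA so that it encodes an active transcription factor, ATF6 is cut to release one, and PERK slows translation while favouring ATF4. Together these factors raise chaperones, folding enzymes and the machinery of endoplasmic reticulum-associated degradation (ERAD), which returns misfolded protein to the cytosol for destruction. Smooth muscle cells of the aorta secrete collagen, elastin and other matrix proteins, so this folding machinery carries much of their traffic.

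The promoters are shown first, because XBP1 and ATF6 are known to act through short elements close to the transcription start. The 250 bases before the start that the RefSeq promoter table gives for each gene were read from that table (build GRCm38.p6), in which all 10 genes were found, and searched on both strands for 3 motifs: the endoplasmic reticulum stress element ERSE (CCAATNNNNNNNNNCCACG), ERSE-II (ATTGGNCCACG) and their shared 3′ part CCACG, which lies inside both. ERSE was present in 37 of 32851 promoters in the table (0.113%) and in 4 of the 10 genes, Hspa5, Hsp90b1, Calr and Creld2. ERSE-II was present in 10 promoters (0.0304%), Herpud1 among them. CCACG was present in 28.3% of promoters and in 8 of the 10 genes, all except Pdia4 and Xbp1. For Edem1 the table's start (chromosome 6, position 108828641) lies 4596 bases inside the printed locus, so its matches are before that inner start; the starts of the other 9 genes are those of their loci. Each sequence below runs 5′ to 3′ along its gene's own strand, and capitals mark the motif, which appears as its reverse complement (CGTGG first) where the match is on the opposite strand. Sdf2l1, the gene with the largest difference between TNC+TNF and TNF cells, is shown with its 3 CCACG matches because neither longer element was found in that window.
Hspa5 (chr2:34772000-34772068, plus strand): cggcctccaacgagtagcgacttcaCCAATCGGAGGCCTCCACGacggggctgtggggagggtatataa
Hsp90b1 (chr10:86705508-86705681, minus strand): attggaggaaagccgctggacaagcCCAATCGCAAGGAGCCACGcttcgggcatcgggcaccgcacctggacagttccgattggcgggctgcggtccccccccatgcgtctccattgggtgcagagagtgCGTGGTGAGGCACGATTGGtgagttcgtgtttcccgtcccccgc
Calr (chr8:84847050-84847118, minus strand): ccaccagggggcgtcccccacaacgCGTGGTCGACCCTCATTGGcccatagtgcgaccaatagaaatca
Creld2 (chr15:88819495-88819563, plus strand): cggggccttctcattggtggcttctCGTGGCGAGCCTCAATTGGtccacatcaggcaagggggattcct
Herpud1 (chr8:94386352-94386412, plus strand): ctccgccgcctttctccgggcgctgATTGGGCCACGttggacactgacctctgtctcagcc
Sdf2l1 (chr16:17132384-17132615, minus strand): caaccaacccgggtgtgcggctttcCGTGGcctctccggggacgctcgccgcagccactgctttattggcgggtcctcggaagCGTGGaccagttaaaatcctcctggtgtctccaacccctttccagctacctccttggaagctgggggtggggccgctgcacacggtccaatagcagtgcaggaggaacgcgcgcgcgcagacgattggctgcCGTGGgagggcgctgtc
The ERSE of Hspa5 ended 47 bases before the start and that of Calr 144 bases before it, and the 2 elements of Hsp90b1 lie on opposite strands. A match describes these letters in this window and shows no binding. The 4 genes not printed lie at chr6:47796141-47813512 (Pdia4), chr12:44205897-44210068 (Dnajb9), chr6:108824045-108859356 (Edem1) and chr11:5520641-5525993 (Xbp1).

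Signals are the authors' array intensities on a linear scale, and differences are on the log2 scale, with the standard error (SE) from limma fitted over 15534 tested genes. A gene was called when its Benjamini-Hochberg adjusted p, taken over all tested genes, was under 0.05. Tnc signal was 66.26 to 144.2 in the knockout cells, 257.5 to 488.7 in TNC-KO pools and 1805 to 2699 in WT pools. Acta2, the actin of smooth muscle, was 15300 to 23320 in the cells. All 12 smooth muscle markers were detected on every array, meaning at or above its 30th percentile, but their levels differed widely. Tagln averaged 14200 in untreated and 8057 in TNC+TNF cells, and Cnn1 1295 and 84.57. Myh11 averaged 346.3 in untreated cells and 34.44 in TNC+TNF cells, below the cell array medians of 51.01 to 64.61. In the pools Myh11 was 8638 to 18980. Cd68, a macrophage marker, was 51.91 to 141.3 in the cells and 438.2 to 4940 in the pools, and Adipoq, a fat cell hormone, was 16.23 to 233.9 and 13320 to 24720. Endothelial markers were also detected in the cultures: 9 or 10 of 10 on each array, with a summed intensity of 19550 to 26180, against 9930 to 22870 in the pools. The markers were uneven: group means were 9805 to 12710 for Emcn and 3217 to 4627 for Pecam1. They were 66.29 to 75.62 for Kdr and 16.91 to 27.49 for Cldn5, the latter below the cell array medians. By the same rule 9 to 13 of 16 macrophage markers were detected in the cells.

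The clearest pattern was in cells that received both factors. All 10 genes were higher with TNC and TNF than with TNF alone, by a median of 0.82 on the log2 scale against 0.00 for all tested genes. The call rate over all tested genes was 16.3% higher and 11.9% lower in that comparison. Because the 10 genes were chosen with earlier results of these data known, their counts beside the background are a description. In each of the 10 genes every TNC+TNF array was above every TNF array, which held for 20% of tested genes. Against cells given nothing, 9 of 10 were called higher with both factors (background 20.7% higher and 22.5% lower; median 1.03). TNC alone raised 7 of 10 over untreated cells (background 16.1% higher and 15.7% lower, median 0.57). With TNF alone none was called higher and only Edem1 was called lower (background 14.3% higher and 20.3% lower, median 0.21). Every TNF array was above every untreated array in Hspa5, Hsp90b1, Pdia4, Calr, Sdf2l1, Creld2 and Dnajb9. In Edem1 every TNF array was below, and in Herpud1 and Xbp1 the arrays overlapped. The share of all tested genes without overlap was not computed here, so the separation of these arrays is given as a description. At an unadjusted p under 0.05 (limma), TNF against none counted 2 of 10 genes, against 42.8% of all tested genes. Each SE pools the spread of all 4 groups, which was wider in TNC and TNC+TNF cells for most of the genes. The TNC count was 4 when untreated array 2 or untreated array 3 was left out.

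The balance of calls over all tested genes depended on the scaling, and centring each array on its median turned it upward. It then stood at 2620 higher and 1941 lower for TNF against none (2214 and 3156 before), 3986 and 1246 for TNC against none (2506 and 2435 before), 4790 and 1923 for TNC+TNF against none (3217 and 3502 before) and 3030 and 1052 for TNC+TNF against TNF (2534 and 1853 before). Of the 10 genes, centring called 10 higher in each of the last 3 comparisons. Under TNF alone it called Hsp90b1 higher (0.36, adjusted p = 0.017, limma) and no longer called Edem1 (-0.33, adjusted p = 0.0583, limma). The source labels of the cell arrays also carry hours that differ from the design text: 33 to 36 h for TNC+TNF, 29 to 32 h for TNC, 26 to 28 h for TNF and 23 to 25 h for untreated cells, 1 h more on each array. They run in step with the groups, so if they are true culture times, hour and treatment cannot be told apart.

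**Figure D1:**
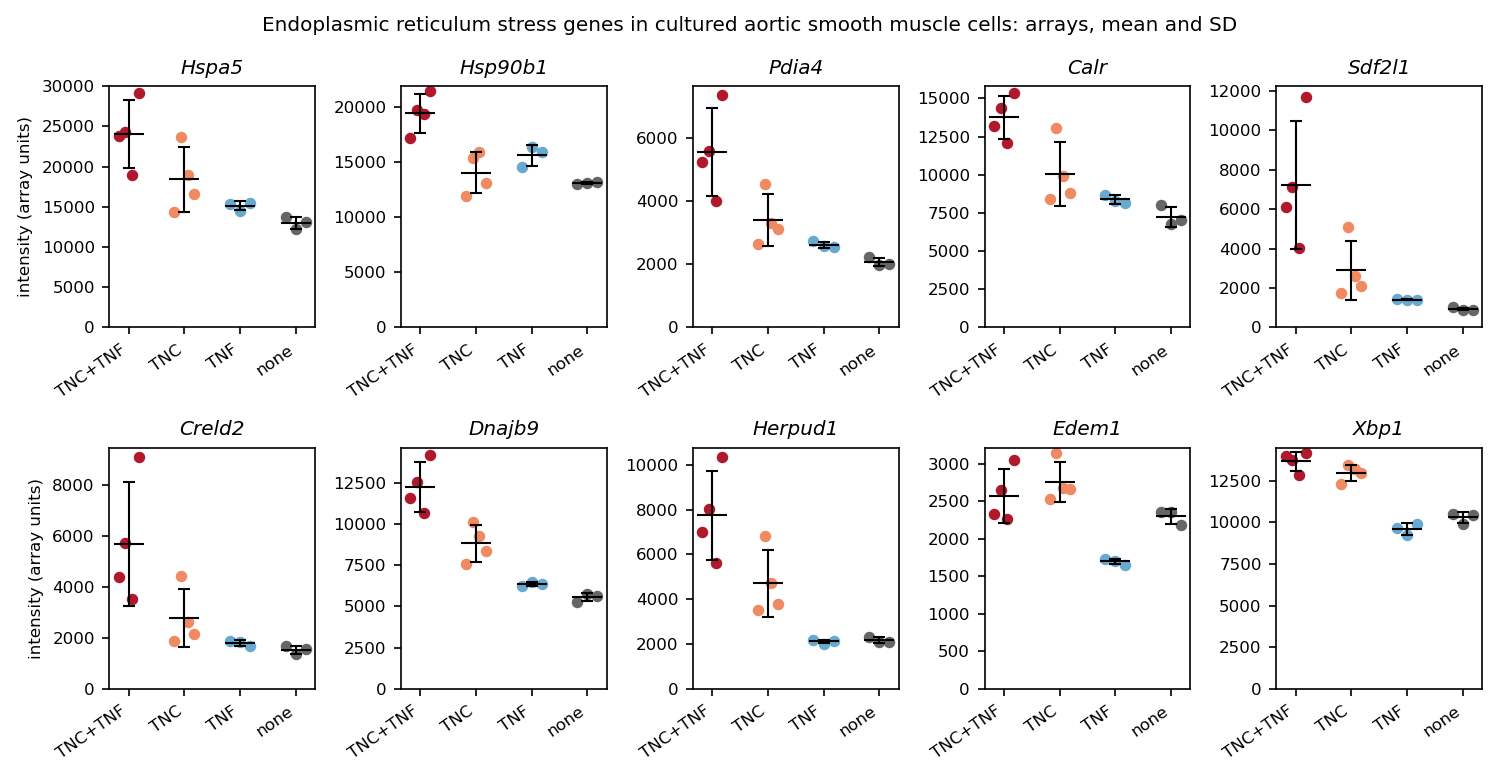
Intensity (array units, linear axis from 0) of each gene in the cultured cells, with 1 point per array, the mean as a dash and the SD as bars. The TNC+TNF mean is highest for 9 genes, the exception being Edem1, and the TNC and TNC+TNF arrays spread more widely than the TNF and untreated arrays for most genes.

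The chaperones that bind unfolded chains come first. Hspa5, which encodes BiP, the Hsp70 chaperone of the lumen that also restrains the stress sensors, had intensities of 23780, 24310, 18900 and 29180 in TNC+TNF cells and 14350, 23690, 18910 and 16640 in TNC cells. It had 15370, 14470 and 15480 in TNF cells and 13680, 12240 and 13070 in untreated cells. The TNC arrays overlapped those of TNC+TNF cells and of TNF cells but stood above every untreated array. Against TNF the difference with both factors was 0.65 (SE 0.16, adjusted p = 0.0118, limma), a 1.57-fold difference. Against untreated cells it was 0.87 with both factors (adjusted p = 0.00113, limma) and 0.48 with TNC (adjusted p = 0.0456, limma), and the TNC call was lost in 11 of 14 fits that left out 1 array, with adjusted p up to 0.131.

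Hsp90b1, the Hsp90 chaperone of the lumen, differed least among the 10 genes between TNC+TNF and TNF cells. Intensities were 17170, 19730, 19370 and 21450 in TNC+TNF cells, 11890, 15360, 15920 and 13100 in TNC cells, 14580, 16350 and 15920 in TNF cells, and 12990, 13090 and 13230 in untreated cells. TNC+TNF arrays were above all others, and TNC arrays lay on both sides of the untreated ones. The difference of TNC+TNF from TNF was 0.31 (SE 0.10, adjusted p = 0.0436, limma); the call was lost in 10 of 14 fits that left out 1 array, with adjusted p up to 0.147, and after quantile normalization (adjusted p = 0.0911). The difference from TNC cells was 0.47 (SE 0.10, adjusted p = 0.00463, limma).

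Calr, the calcium-binding lectin chaperone calreticulin, had 13220, 14380, 12090 and 15380 in TNC+TNF cells, 8404, 13050, 9902 and 8802 in TNC cells, 8693, 8281 and 8170 in TNF cells, and 7992, 6743 and 7037 in untreated cells. A single TNC array, the second, reached into the TNC+TNF range. Calr was 0.71 higher with both factors than with TNF (SE 0.14, adjusted p = 0.00286, limma) and 0.45 higher with TNC than without any factor (SE 0.14, adjusted p = 0.0285, limma).

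The folding enzymes and co-chaperones moved further. Pdia4, a protein disulfide isomerase, had 5261, 5588, 4026 and 7389 in TNC+TNF cells and 2639, 4557, 3311 and 3114 in TNC cells. TNF cells had 2732, 2578 and 2543, and untreated cells 2220, 1977 and 2009. The TNC+TNF arrays all exceeded the TNF arrays but overlapped the TNC arrays. The difference of TNC+TNF from TNF was 1.06 (SE 0.20, adjusted p = 0.00231, limma), that of TNC+TNF from TNC 0.70 (SE 0.18, adjusted p = 0.0178, limma), and that of TNC from untreated cells 0.69 (SE 0.20, adjusted p = 0.0205, limma).

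Sdf2l1, which works with BiP and its J-domain partners in the lumen, showed the largest difference of the 10 genes between TNC+TNF and TNF cells. Its intensities were 6104, 7145, 4032 and 11710 in TNC+TNF cells, 1767, 5077, 2627 and 2112 in TNC cells, 1435, 1410 and 1366 in TNF cells, and 1011, 904.7 and 901.7 in untreated cells. Each TNC array was above each TNF array, and only the second TNC array reached into the TNC+TNF range. TNC+TNF cells averaged 7248 ± 3240 (SD, n = 4) and TNF cells 1404 ± 34.9 (SD, n = 3), a 4.8-fold difference on the log scale (2.26, SE 0.37, adjusted p = 0.000908, limma). Against untreated cells Sdf2l1 was 7.18-fold higher with both factors (2.84, SE 0.37, adjusted p = 6.86e-05, limma) and 2.83-fold higher with TNC (1.5, SE 0.37, adjusted p = 0.00882, limma). With TNF alone the difference was 0.58, with a 95% interval of -0.28 to 1.44 (adjusted p = 0.295, limma), although every TNF array was above every untreated array. That interval rests on a spread pooled over all 4 groups. The log2 SD of Sdf2l1 was 0.04 in TNF and 0.09 in untreated cells, against 0.67 in TNC and 0.64 in TNC+TNF cells.

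Creld2, a disulfide isomerase-like protein of the lumen, had 4372, 5714, 3526 and 9078 in TNC+TNF cells, 1880, 4423, 2638 and 2136 in TNC cells, 1888, 1819 and 1688 in TNF cells, and 1666, 1377 and 1553 in untreated cells. The lowest TNC array lay within the TNF range and the highest within the TNC+TNF range. TNC+TNF exceeded TNF by 1.57 (SE 0.32, adjusted p = 0.00395, limma) and TNC by 1.02 (SE 0.30, adjusted p = 0.0301, limma), and the call against TNC was lost in 5 of 14 fits that left out 1 array, whereas TNC against untreated cells gave 0.78 (SE 0.32, adjusted p = 0.0912, limma), short of a call.

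Dnajb9 encodes ERdj4, a J-domain co-chaperone of BiP that takes part in ERAD. Intensities were 11560, 12540, 10650 and 14190 in TNC+TNF cells, 7545, 10090, 9282 and 8359 in TNC cells, 6236, 6493 and 6344 in TNF cells, and 5294, 5724 and 5653 in untreated cells. No group overlapped another. The difference of TNC+TNF from TNF was 0.94 (SE 0.11, adjusted p = 8.94e-05, limma), that of TNC+TNF from TNC 0.47 (SE 0.10, adjusted p = 0.00577, limma), and that of TNC from untreated cells 0.66 (SE 0.11, adjusted p = 0.000749, limma). The TNF difference alone was 0.19 (95% interval -0.06 to 0.45).

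The ERAD genes differed from each other. Herpud1, a membrane protein that helps assemble the ERAD ubiquitin ligase complex, had 7001, 8022, 5620 and 10360 in TNC+TNF cells and 3541, 6826, 4731 and 3768 in TNC cells. TNF cells had 2179, 2026 and 2145, and untreated cells 2335, 2090 and 2103. Every array with TNC stood above every array without it. Herpud1 was 3.57-fold higher with both factors than with TNF (1.84, SE 0.23, adjusted p = 0.000152, limma) and 2.1-fold higher with TNC than in untreated cells (1.07, SE 0.23, adjusted p = 0.0042, limma), while TNF alone gave -0.04 (95% interval -0.58 to 0.50).

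Edem1, which hands mannose-trimmed glycoproteins to ERAD, had 2337, 2653, 2266 and 3057 in TNC+TNF cells, 2530, 3145, 2680 and 2670 in TNC cells, 1727, 1712 and 1658 in TNF cells, and 2353, 2364 and 2188 in untreated cells. The TNF arrays were below all the others, and the remaining 3 groups lay close together. Edem1 fell by 0.44 with TNF alone (SE 0.11, adjusted p = 0.00886, limma) and was 0.59 higher with both factors than with TNF (SE 0.10, adjusted p = 0.00142, limma). Its other probe set ran the opposite way under TNF: 1718, 1740 and 1743 in TNF cells, against 1384, 1184 and 1194 in untreated cells, a difference of 0.47 (SE 0.13, adjusted p = 0.017, limma over all probe sets). That probe set was 0.77 higher with both factors than in untreated cells (adjusted p = 0.000372, limma), where the brighter one gave 0.15. The direction of Edem1 under TNF was therefore different on its 2 probe sets.

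Xbp1, the transcription factor activated by IRE1, had arrays close together in every treatment. Intensities were 13960, 13740, 12860 and 14150 in TNC+TNF cells, 12290, 13440, 13180 and 12970 in TNC cells, 9665, 9217 and 9919 in TNF cells, and 10530, 9904 and 10450 in untreated cells. All arrays with TNC were above all arrays without it, and the TNC+TNF and TNC arrays overlapped. The differences were 0.51 for TNC+TNF against TNF (SE 0.05, adjusted p = 3.89e-05, limma), 0.33 for TNC against none (SE 0.05, adjusted p = 0.000574, limma) and 0.08 for TNC+TNF against TNC (95% interval -0.03 to 0.18). Xbp1 has 3 dimmer probe sets, which were lower in TNF than in untreated cells by log2 differences of -0.26, -0.41 and -0.45 (adjusted p = 0.0294, 0.0015 and 0.0461, limma over all probe sets), where the brightest gave -0.10. No value here separates spliced from unspliced Xbp1 RNA.

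**Figure D2:**
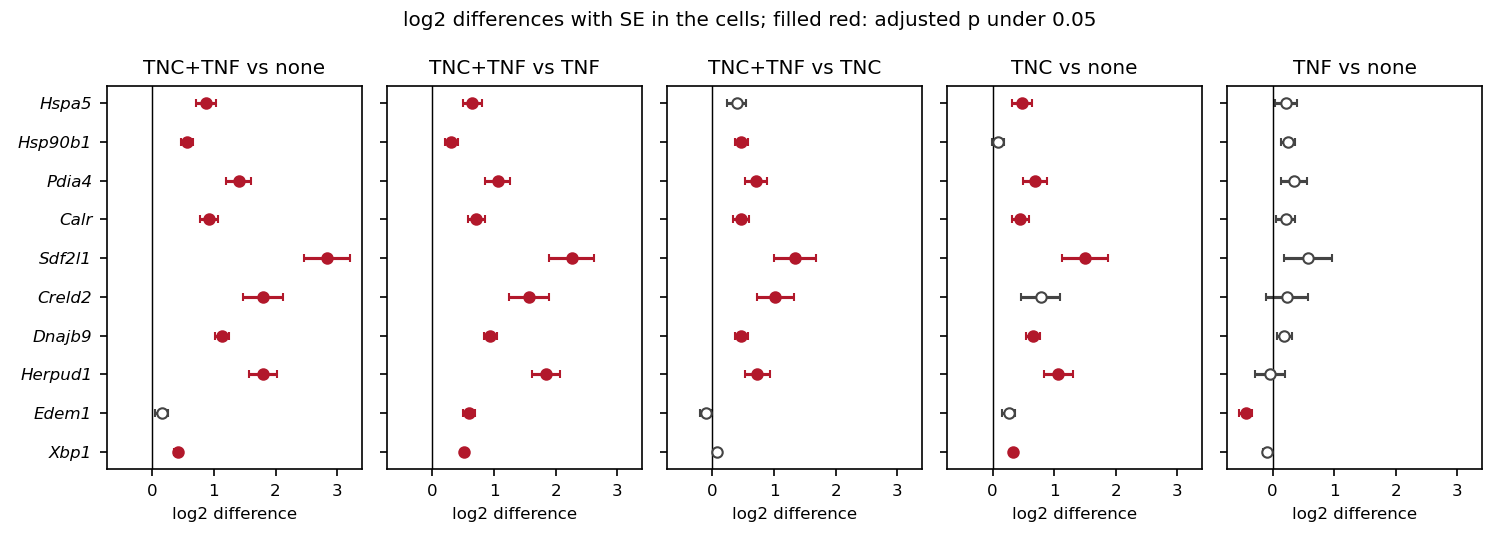
log2 differences with SE of the 10 genes in 5 comparisons of the cultured cells, filled red where the adjusted p was under 0.05. In the comparison of TNC+TNF with TNF all 10 genes are filled, from 0.31 for Hsp90b1 to 2.26 for Sdf2l1, and in that of TNF with no factor only Edem1 is, at -0.44.

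The order of group means was none, TNF, TNC and TNC+TNF, from low to high, in 6 genes: Hspa5, Pdia4, Calr, Sdf2l1, Creld2 and Dnajb9. Herpud1 and Xbp1 had TNF lowest, Hsp90b1 had TNC below TNF, and Edem1 had TNC highest. Adding TNF to TNC raised 7 of 10 genes (background 9.6% higher and 12.5% lower; median 0.47), all except Hspa5, Edem1 and Xbp1, which gave 0.39, -0.10 and 0.08. Without TNC array 1 that count was 3, and it was 4 without TNC array 4, TNC+TNF array 2 or TNC+TNF array 4. TNC against TNF, each alone, called 4 genes higher, Dnajb9, Herpud1, Edem1 and Xbp1 (background 18.2% higher and 10.4% lower; median 0.45). These comparisons share the arrays of TNC, TNF and untreated cells, so their counts are not independent.

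Whether TNF acted differently with TNC than without it was tested by the interaction term. It was positive in all 10 genes, from 0.18 to 0.79 on the log2 scale (median 0.31, against 0.04 for all tested genes), and none was called by limma (background 9.81% positive and 9.01% negative; 791 genes positive and 1238 negative after median centring, against 1524 and 1399). The 10 estimates lay at percentiles 62.3 to 89.2 of all tested genes, and they rest on the same arrays. At an unadjusted p under 0.05 the count was 3 of 10 genes, Herpud1, Edem1 and Xbp1, against 30.8% of all tested genes. Limma with a mean-variance trend also called 0. Without TNC array 2 and TNC+TNF array 4, an alternative chosen after seeing the data, 2 were called, Herpud1 (0.81, adjusted p = 0.0217, limma) and Edem1 (0.32, adjusted p = 0.0494, limma). The other comparisons kept close counts without those 2 arrays: 9 of 10 for TNC+TNF against TNF, 9 for TNC+TNF against none, 8 for TNC+TNF against TNC and 6 for TNC against none.

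The 10 genes also moved together from culture to culture within a treatment. TNC+TNF array 4 was the highest of its group in all 10 genes and array 3 the lowest in 9, and TNC array 2 was the highest of its group in 9 genes and array 1 the lowest in all 10. Over all tested genes, TNC+TNF array 4 was the highest of its group in 29.1%, TNC+TNF array 3 the lowest in 26.4%, TNC array 2 the highest in 29.6% and TNC array 1 the lowest in 23.6%. After group means were removed, the log2 values of the 45 pairs of genes correlated at 0.37 to 0.99 over the 14 arrays (median 0.89). These points share their arrays and scaling, and the correlations are given as a description. The spread was widest for Sdf2l1 and Creld2, with an SD of 0.64 and 0.59 on the log2 scale in TNC+TNF cells, against 0.04 and 0.08 in TNF cells, and narrowest in TNC+TNF cells for Xbp1, with 0.06 in TNC+TNF cells and 0.05 in TNF cells.

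**Figure D3:**
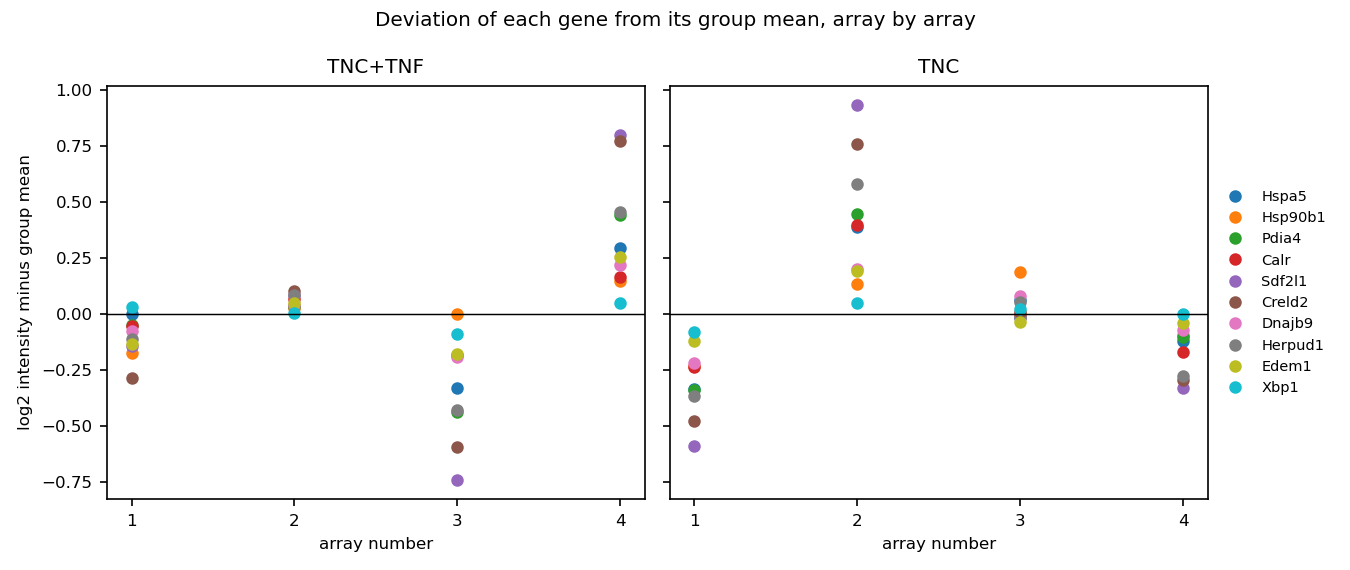
Deviation of each gene's log2 intensity from its group mean on each array of the TNC+TNF and TNC groups, with 1 colour per gene. All 10 genes lie above the mean on TNC+TNF array 4 and on TNC array 2, and all 10 lie below it on TNC array 1.

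Genes outside all lists whose log2 values over the 14 arrays correlated best with the mean of the 10 genes were Snhg1 (r = 0.991), Slc35b1 (0.987), Tbc1d31 (0.985), Psph and Acot2 (0.984 each), and Cyb5r1, Got1 and Pdzd8 (0.983 each). They were ranked over the same arrays, 4 treatments included. Cyb5r1, a cytochrome b5 reductase, averaged 6551 in TNC+TNF, 3731 in TNC, 2580 in TNF and 2287 in untreated cells, and Slc35b1, a nucleotide sugar and ATP carrier of the endoplasmic reticulum, 4780, 3225, 2531 and 2233.

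The rest of the pathway was read in the same comparison, TNC+TNF against TNF. Of 9 sensors and transcription factors 7 were higher and none lower, with a median of 0.40. Creb3l1, a membrane-bound transcription factor, was higher by 0.95 (adjusted p = 4.23e-06, limma), Ern1, which encodes IRE1, by 0.63 (adjusted p = 7.71e-05, limma), Atf6 by 0.78 (adjusted p = 0.000218, limma) and Creb3l2 by 0.53 (adjusted p = 0.000433, limma). Of 10 genes of the PERK and ATF4 arm 9 were higher, with a median of 1.11. Ddit4, an inhibitor of mTORC1, was higher by 1.02 (adjusted p = 1.69e-06, limma), Chac1, which degrades glutathione, by 2.09 (adjusted p = 4.56e-05, limma), Asns, asparagine synthetase, by 1.39 (adjusted p = 0.000136, limma) and Atf4 itself by 0.60 (adjusted p = 0.000159, limma).

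Of 19 further chaperones and folding enzymes of the endoplasmic reticulum 15 were higher and 1 lower, with a median of 0.35. The oxidase genes Ero1a and Ero1b were higher by 0.74 and 1.88, Serp1, which stabilises membrane proteins, by 0.81 and the isomerase Pdia5 by 0.46 (adjusted p of 0.000324, 0.000491, 0.000374 and 0.000409, limma). Txndc5, another disulfide isomerase, was the exception: it averaged 8720 in TNC+TNF cells and 12080 in TNF cells and fell by 0.48 (adjusted p = 0.00229, limma). Of 13 further ERAD genes 8 were higher, with a median of 0.34. The channel-forming derlin Derl1 was higher by 0.73 (adjusted p = 0.000247, limma). Derl3, its relative, averaged 223.8 in TNC+TNF, 106.4 in TNC, 13.76 in TNF and 55.37 in untreated cells, and no fold is given because its TNF level is below the median of every array. Selenos and Herpud2 were higher by 0.60 and 0.32.

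Of 19 genes of the translocon and of export to the Golgi 16 were higher, by a median of 0.26, among them Srpr (0.57), Kdelr3 (0.44), Ssr4 (0.31) and Spcs2 (0.53). The chaperones outside the endoplasmic reticulum differed in direction: of 16 cytosolic and mitochondrial chaperones 8 were lower and 1 higher, with a median of -0.30. Bag3, Dnaja1, Hspa1b and Hspb1, all part of the cytosolic heat shock response, gave -0.44, -0.46, -0.95 and -0.71 (adjusted p of 0.000275, 0.000326, 0.000515 and 0.000988, limma), while the mitochondrial Hspa9 was 0.72 higher (adjusted p = 0.0027, limma). These lists were written with earlier results of these arrays known, and their counts describe these cultures.

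**Figure D4:**
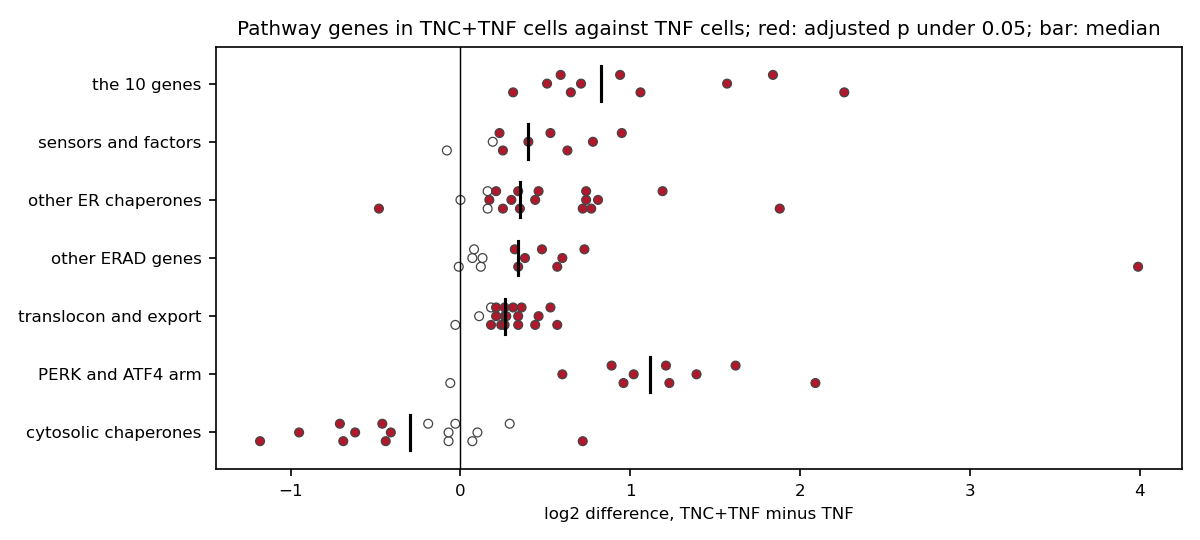
log2 difference of each tested gene in TNC+TNF cells from TNF cells, by list, filled red where the adjusted p was under 0.05, with a bar at each list's median. The medians run from 1.11 for the PERK and ATF4 arm and 0.82 for the 10 genes to -0.30 for the cytosolic chaperones.

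The promoter elements can be set beside these differences. Of 18 tested genes outside the 10 that hold an ERSE or ERSE-II within 250 bases of the start, 8 were higher and 0 lower in TNC+TNF than in TNF cells (44.4% higher), against 16.4% higher and 11.8% lower of 12420 tested genes with a promoter in the table. The median difference was 0.17, against 0.01. Against untreated cells, TNC+TNF gave 55.6% higher and 5.56% lower (20.8% and 22.3% of genes with a promoter), and against TNC cells 38.9% higher (9.65%). The other comparisons of 2 groups were closer to those genes. TNC against none gave 22.2% higher and 11.1% lower (16.1% and 15.6%), and TNF against none 11.1% and 22.2% (14.2% and 20.2%). TNC against TNF gave 16.7% higher (18%). The interaction term was called positive in 22.2% and negative in 0% (9.82% and 8.88%), with a median of 0.27 against 0.04. Among the 10 genes, the 5 with an element ranged from 0.31 (Hsp90b1) to 1.84 (Herpud1), and Sdf2l1, at 2.26, had none in its window. The shares above rest on only 18 genes, and the part of the elements in these differences was not tested.

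Cell type markers moved with the treatments. Of 12 smooth muscle markers 11 were lower in TNC+TNF than in untreated cells, with summed intensities of 30290 to 33980 against 63570 to 68590. Between TNC+TNF and TNF cells, where all 10 genes differed, 1 was higher and 3 lower, and the sums were 30290 to 33980 and 29610 to 32340. Of 15 tested macrophage markers 4 were higher and 5 lower in that comparison, with sums of 9802 to 12350 in TNC+TNF and 6062 to 6789 in TNF cells, and of 10 endothelial markers 1 was higher and 2 lower. The part of these shifts in the differences above was not tested.

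In the aorta each pair has 1 pool on each side and no test was run, so genes are counted at a difference of at least 1.5-fold. CaAngII went with higher levels of most of the 10 genes. In the infrarenal aorta 6 of 10 were at least 1.5-fold higher with CaAngII in TNC-KO pools (background 20.3% higher and 13.9% lower; median log2 ratio 0.62) and 4 of 10 in WT pools (background 17.7% and 15.2%; median 0.42). In the suprarenal aorta the counts were 3 in TNC-KO pools (background 7.08% and 5.07%; median 0.42) and 1 in WT pools (background 5.33% and 4.65%; median 0.14). None of the 10 was 1.5-fold lower in these 4 pairs. Hspa5, Hsp90b1, Pdia4, Calr, Sdf2l1, Creld2 and Xbp1, 7 of 10, were higher with CaAngII in all 4 pairs, which held for 16.8% of genes. In tissue, more or fewer cells of a type cannot be told apart from more or less RNA per cell.

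**Figure D5:**
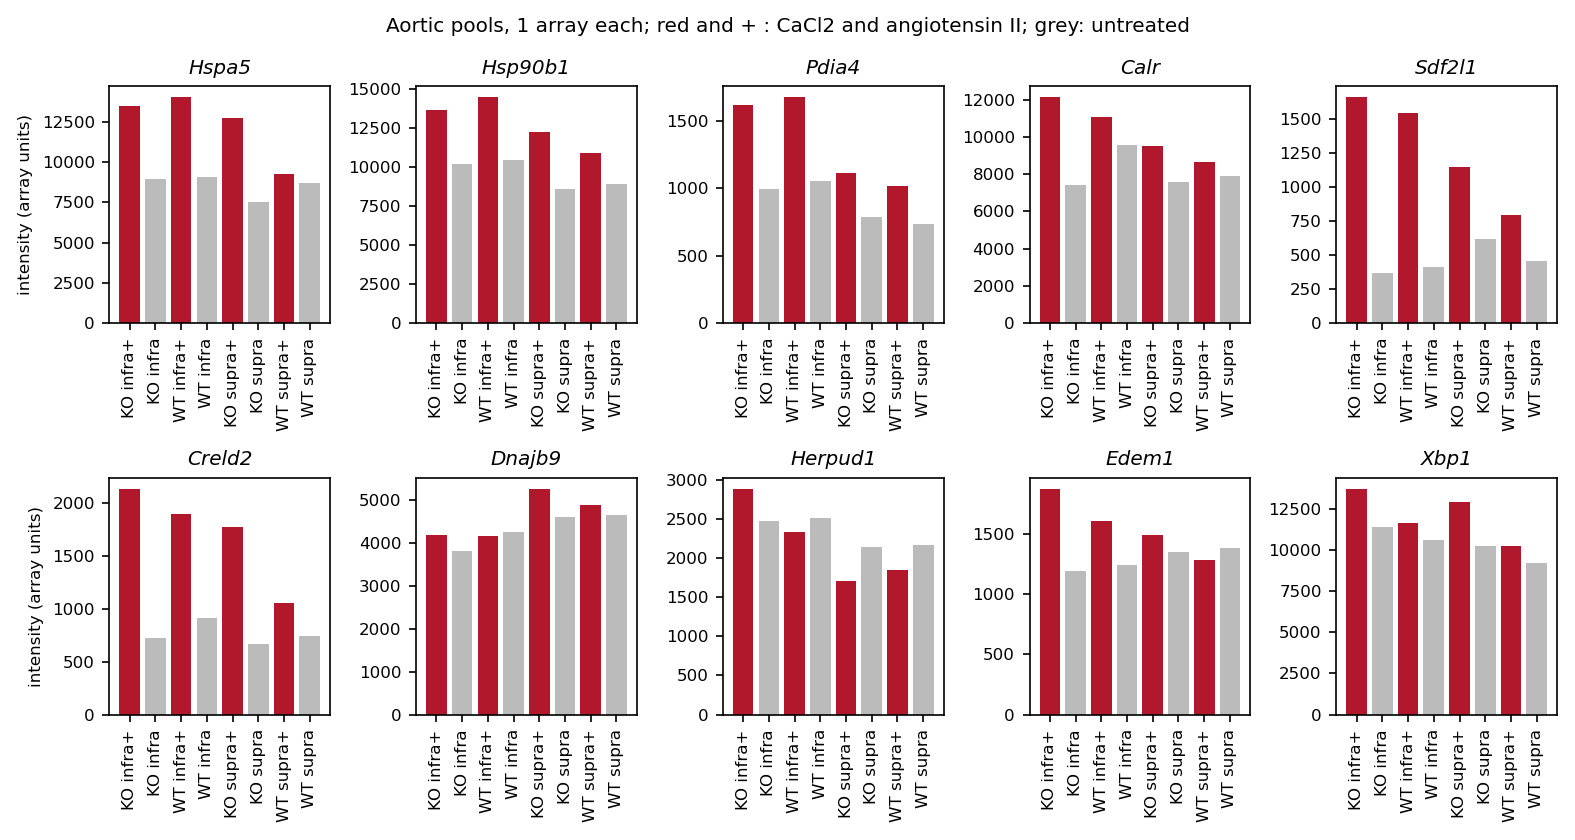
Intensity (array units, linear axis from 0) of the 10 genes in the 8 aortic pools, 1 bar per array, red with a plus sign for CaAngII and grey for untreated. The bars of Sdf2l1 and Creld2 are higher with CaAngII in every pair, while those of Herpud1 and Dnajb9 change little.

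Sdf2l1 had the highest CaAngII ratio of the 10 genes in 3 of the 4 pairs, and Creld2 in the TNC-KO suprarenal pair. The Sdf2l1 intensity was 1663 with CaAngII against 368.7 untreated in TNC-KO infrarenal pools (4.51-fold) and 1548 against 413.9 in WT infrarenal pools (3.74-fold). In the suprarenal pools it was 1146 against 620.1 in TNC-KO (1.85-fold) and 796.9 against 458.5 in WT (1.74-fold). Both segments and both genotypes thus had the higher value under CaAngII, with the wider gap in the infrarenal pools.

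Creld2 was 2134 with CaAngII against 723.3 untreated in TNC-KO infrarenal pools (2.95-fold) and 1898 against 911.6 in WT infrarenal pools (2.08-fold). In suprarenal pools it was 1777 against 669 in TNC-KO (2.66-fold) and 1057 against 740.7 in WT (1.43-fold). The WT suprarenal pair was the only one under 1.5-fold. Hspa5 just passed 1.5-fold in both infrarenal pairs, with 13500 against 8945 in TNC-KO (1.51-fold) and 14010 against 9072 in WT (1.54-fold). In the suprarenal pairs Hspa5 was 12740 against 7543 in TNC-KO (1.69-fold) and 9242 against 8662 in WT (1.07-fold).

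Pdia4 was 1620 with CaAngII against 992.2 untreated in TNC-KO infrarenal pools (1.63-fold) and 1675 against 1053 in WT ones (1.59-fold), and 1.41-fold and 1.38-fold higher in the suprarenal pairs. Calr was 12120 against 7422 in TNC-KO infrarenal pools (1.63-fold) and 11070 against 9570 in WT ones (1.16-fold). Edem1 was 1873 against 1191 in TNC-KO infrarenal pools (1.57-fold) and 1605 against 1243 in WT ones (1.29-fold). These 3 genes were all higher with CaAngII in both infrarenal pairs. The ratios of Hsp90b1 and Xbp1 over the 4 pairs stayed within 1.22 to 1.43 and 1.1 to 1.26. These are ratios of the brightest probe sets, and dimmer ones differed. The other Edem1 probe set had wider gaps, with 1563 against 775 in TNC-KO and 1605 against 867.3 in WT infrarenal pools. For Xbp1, 1 dimmer probe set read 4653 against 2839 in TNC-KO suprarenal pools, and the dimmest read 340.9 against 500 in TNC-KO infrarenal pools.

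Herpud1 and Dnajb9, which TNC raised in the cells, stayed under 1.5-fold in every pair of pools. Herpud1 was 1705 with CaAngII against 2141 untreated in TNC-KO suprarenal pools and 1851 against 2166 in WT suprarenal pools. It was 2885 against 2474 in TNC-KO infrarenal pools and 2338 against 2514 in WT infrarenal pools, so it was lower in 3 of 4 pairs. On its other probe set the TNC-KO infrarenal pair was lower as well, with 1935 against 2261, as were the remaining pairs. Dnajb9 ratios ran from 0.975 (WT infrarenal) to 1.14 (TNC-KO suprarenal).

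Between genotypes the 10 genes differed little. Under CaAngII 9 of 10 were higher in the TNC-KO than in the WT suprarenal pool (median 0.19, against -0.04 for all genes), and 1 passed 1.5-fold, Creld2 with 1777 against 1057 (1.68-fold; background 5.25% higher and 2.11% lower). Hspa5 was 12740 against 9242 there (1.38-fold). None of the 10 passed 1.5-fold in the untreated suprarenal pair (background 4.55% higher and 2.91% lower), the infrarenal pair under CaAngII (1.89% and 2.17%) or the untreated infrarenal pair (3.05% and 2.66%). In that last pair 1 of 10 was higher in TNC-KO, with a median of -0.07 against -0.05 for all genes. Calr had the lowest ratio there, with 7422 against 9570. Each genotype ratio rests on 1 pool a side and has no error.

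Of 19 further chaperones and folding enzymes of the endoplasmic reticulum 10 were at least 1.5-fold higher with CaAngII in TNC-KO infrarenal pools and 7 in WT ones, and none was lower. Of 10 genes of the PERK and ATF4 arm 0 were higher in TNC-KO infrarenal pools and 2 in WT ones, where 1 was lower. Their medians were -0.04 and -0.01. Over all genes, 20.3% were higher and 13.9% lower in the TNC-KO infrarenal pair, and 17.7% and 15.2% in the WT one. In the cells, 9 of the 10 had been called higher in TNC+TNF than in TNF cells, by adjusted p and not by a 1.5-fold ratio. Of 16 cytosolic and mitochondrial chaperones 6 were lower in TNC-KO infrarenal pools and 11 in WT ones, and none was higher. The suprarenal pairs differed from these: the PERK and ATF4 arm had a median of 0.35 in TNC-KO (8 of 10 above 0, 1 past 1.5-fold) and -0.07 in WT (2 lower). Of the cytosolic and mitochondrial chaperones 0 were lower in TNC-KO and 5 in WT suprarenal pools. Over all genes, 7.08% were higher and 5.07% lower in the TNC-KO suprarenal pair, and 5.33% and 4.65% in the WT one.

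Cell type markers moved with CaAngII as well. In infrarenal pools 16 of 16 macrophage markers were at least 1.5-fold higher in both genotypes, with sums of 127500 against 27870 in TNC-KO and 125000 against 33320 in WT. Of 12 smooth muscle markers 10 were lower in TNC-KO and 11 in WT, with sums of 103100 against 167200 and 91290 against 168200. Plasma and B cell markers summed to 20090 against 2619 in TNC-KO and 16720 against 3776 in WT infrarenal pools. Fat markers summed to 56320 against 92440 in TNC-KO and 48090 against 90220 in WT. Of 11 fibroblast and collagen markers 5 were higher in TNC-KO and 4 in WT infrarenal pools and none lower, with sums of 222900 against 177100 and 190600 against 172000. In the suprarenal pairs 10 of 15 macrophage markers were higher with CaAngII in TNC-KO (58410 against 37150) and 6 of 15 in WT (45800 against 41240). Of 7 plasma and B cell markers 5 were lower there in each genotype, with sums of 15710 against 15060 in TNC-KO and 5264 against 8862 in WT, and of 11 fibroblast and collagen markers 3 and 4 were higher. In the suprarenal pools under CaAngII, where Creld2 differed by genotype, plasma and B cell markers summed to 15710 in TNC-KO and 5264 in WT and macrophage markers to 58410 and 45800. Their part in the values of the 10 genes was not tested.

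The probe sets of a gene did not always give the same picture. The dimmest probe set of Hspa5 read 498.1 to 835.1 in TNC and 675.3 to 827.8 in TNF cells, below the 965.2 to 1058 of untreated cells. Its TNC+TNF arrays, at 696.8 to 1673, overlapped both the TNF and the untreated ones. The second Hspa5 probe set ran as the brightest did, with 17390 to 24030 in TNC+TNF, 10990 to 17550 in TNC, 12570 to 12910 in TNF and 8929 to 10160 in untreated cells. The second probe set of Hsp90b1 read 5324 in the untreated TNC-KO infrarenal pool and 1602 to 2789 in the other 7 pools, where the brighter one showed no such excess (10170 in that pool and 8592 to 14460 in the others). The second probe set of Pdia4 was dim, with 1.771 to 27.18 in the cells. Both Herpud1 probe sets and all 3 of Calr rose with both factors over TNF, by 1.84 and 2.06 for Herpud1 and by 0.71, 0.98 and 1.01 for Calr.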

How the data were processed

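Arrays were scanned by the authors and summarised with Affymetrix Expression Console, per the submitters' processing notes; the sources used here give neither version nor algorithm. The authors deposited 1 linear intensity for each of 45101 probe sets. Trimmed to its middle 96%, each array averages 500, a common scale. Medians were 51.01 to 64.61 in cells and 119.3 to 134.5 in pools. Arrays give no depth, and their number limits the precision. Probe sets for controls (64), with several symbols (932) or without a name (9160) were left out. Groups follow the treatment labels. For the TNC group the titles read "TNC or TNF". Hours that count up by array in the source labels (23 to 36 h, also on untreated cells) were not used.

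Values were taken to log2. In cells, genes whose signal reached the array's 30th percentile on 3 arrays or more were fitted in limma 3.58.1 (R 4.3.3), 4 groups in 1 model with 10 residual degrees of freedom, two-sided, with Benjamini-Hochberg adjustment. In pools, genes reaching the 50th percentile on either array of a pair were compared by ratio. The code was tested on simulated data. Alternatives covered normalization, filter, probe set, pseudocount, variance model, replicate number and each array left out.

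The 10 genes and all lists were chosen with earlier results of these data known. Named are the 10 genes, up to 4 genes per pathway list with the lowest adjusted p in TNC+TNF against TNF plus those called the opposite way, the 8 genes most like the mean of the 10, Tnc, Acta2, Cd68 and Adipoq. Promoter sequences are from RefSeq (GRCm38.p6).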

Additional observations from a re-analysis of the deposited data

How the results depend on the processing

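Counts below are of the 10 genes. TNF against none called 1 gene, and 2 after quantile normalization, with the second-brightest probe set or with limma-trend. Centring arrays on their median moved the median of all genes by over 0.1 (from -0.03 to 0.14 for TNC against none) and changed the calls over all genes there to 3986 higher and 1246 lower, against 2506 and 2435. It gave 10 calls for TNC against none, and reversed Herpud1 (0.07) and Xbp1 (0.01) under TNF, where the 1 gene called was Hsp90b1 (0.36, higher) in place of Edem1 (-0.33). TNC against none called 4 genes with the mean of all probe sets and 4 with the replicate block. Same-number arrays correlated at -0.0158 to 0.057 after group means were removed, so they shared no strong effect across genes. A pairing that affects only some genes was not tested. With the replicate block TNC+TNF against TNF still called 10 and TNC+TNF against TNC 5.

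The interaction called 1 gene after quantile normalization and with the mean of probe sets (Xbp1), and 2 without TNC array 2 and TNC+TNF array 4. Leaving out 1 array gave counts of 9 to 10 for TNC+TNF against TNF, 9 for TNC+TNF against none, 4 to 9 for TNC against none (4 without none array 2 or 3, 9 without TNC+TNF array 4), 3 to 8 for TNC+TNF against TNC, 4 for TNC against TNF, 1 for TNF against none and 0 to 1 for the interaction (1 without TNC array 2). Herpud1 under TNF ranged from -0.07 to 0.01. The cause was not tested.

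With the mean of probe sets the sign turned for Edem1 under TNF (0.02) and for TNC+TNF against TNC (0.26), and for Pdia4 for TNC against none (-0.07), TNC against TNF (-0.16) and CaAngII in the TNC-KO infrarenal pair (-0.75). With the second probe set it turned for Pdia4, which is dim there (-0.17, -0.84, -0.79, -0.62 and -0.67 for TNF, TNC and TNC+TNF against none, TNC+TNF against TNF and TNC against TNF), Edem1 (0.47, 0.62 and -0.33 for TNF against none, TNC+TNF against TNC and TNC against TNF) and Hsp90b1 (0.04, TNC against TNF). In the pools, median centring gave 2 genes past 1.5-fold in the WT suprarenal pair and 2 in the WT infrarenal pair, and the mean of probe sets 1 and 2 for TNC-KO against WT in infrarenal pools under CaAngII and untreated.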
